A study of Mus musculus with 2 samples.

Results

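Branched-chain amino acid breakdown was followed through 10 genes in mouse interscapular brown fat, a depot that burns fuel to make heat. The genes were Bcat2, Bckdha, Bckdhb, Dbt, Bckdk, Ivd, Mccc1, Hibch, Hibadh and Aldh6a1. They were chosen by name, and the reads of all their transcripts were summed. All 10 were detected in both libraries, out of 15523 named genes with at least 1 read. Native poly(A)+ RNA had been passed through nanopores in 2 libraries, a control and a cold one, each from male wild type C57BL/6N mice aged 20 weeks. RNA of 3 mice was pooled for the cold library, and these mice had been housed singly at 4 °C for 24 h. The control library carries the treatment label ctrl, and its pool size is not given in the sources used here. General housing was at 22 to 24 °C, although the treatment text attached to the control repeats the cold exposure. The extraction text names another fat depot, and the tissue field names interscapular brown fat for both libraries.

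Leucine, isoleucine and valine are essential amino acids that share the first steps of their breakdown. A transaminase turns them into branched-chain keto acids, and a mitochondrial dehydrogenase complex, built from E1 alpha, E1 beta, E2 and E3 subunits, commits these to oxidation as acyl-CoA esters. A kinase switches the complex off by phosphorylating E1 alpha, and a phosphatase switches it on. Separate arms then lead to acetyl-CoA, acetoacetate, propionyl-CoA and succinyl-CoA. Cold-exposed brown fat is known to take up and oxidise these amino acids in its mitochondria.

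Depth was 1698124 reads for the control library against 1215617 for the cold one. Neither group has a second library, which leaves the spread between replicates unknown, and therefore no condition was tested and no p-value is printed. Ratios are of cold over control after scaling with edgeR's trimmed mean of M-values (TMM), which multiplied the raw ratio of reads by 1.23. Values in parentheses after a ratio, a level or a share are 95% intervals that cover counting error only and compare these 2 libraries, not the conditions. Brown adipocyte markers were present in both libraries, at 1.43% of control reads and 1.89% of cold reads. Ucp1, the uncoupling protein, led with 14860 and 14526 reads, a ratio of 1.21 (1.18 to 1.23). Of the 8 markers, 5 had intervals above 1 and 2 had intervals that held 1. The largest ratios were 6.03 for Ppargc1a, 5.94 for Dio2 and 5.01 for Elovl3, while Cox8b was 1.39-fold lower (1.32 to 1.46). The 3 hepatocyte markers were at 0 in both. All 12 skeletal muscle markers had intervals above a ratio of 1, and their summed share was 0.0378% of control reads (0.0349 to 0.0408) and 0.165% of cold reads (0.158 to 0.172). The summed share of 6 endothelial markers, of which 3 had intervals above 1, was 0.0326% and 0.0512%, and that of 5 fibroblast markers 0.0196% and 0.0214%. That of 5 white adipocyte markers was 0.0114% and 0.0333%, with the intervals of Npr3, Retn and Nnat above 1, that of Lep (36 and 5 reads) below 1 and no reads of Wt1. Of the 5 macrophage markers 1, Lyz2, had at least 20 reads over both libraries, and it was 1.79-fold higher (1.11 to 2.93). Adgre1 (2 and 0 reads), Cd68 (9 and 5) and Mrc1 (8 and 6) had ratios below 1, and Csf1r (7 and 10) had one above 1. The summed ratio of the 5 macrophage markers was 1.43 (0.987 to 2.07), an interval that held 1. The 5 general adipocyte markers were mixed, with 2 intervals above 1, 2 below 1 and 1 that held 1. Among them Adipoq was 1.52-fold lower (1.36 to 1.70) and Fabp4 1.24-fold higher (1.22 to 1.27). The summed ratio of the 5 was 1.19 (1.17 to 1.21), a sum in which Fabp4 had the most reads. The part of muscle or other cells in the ratios below was not tested. In bulk tissue, fewer cells of a type and less RNA per cell cannot be told apart.

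The E2 core of the branched-chain dehydrogenase was higher in the cold library, while E1 alpha and the kinase that acts on it were lower. Dbt, the E2 dihydrolipoyl transacylase, was 2.0-fold higher (1.6 to 2.51). Bckdk, the kinase, was 1.88-fold lower (1.44 to 2.46), and Bckdha, the E1 alpha subunit, 1.39-fold lower (1.21 to 1.62). The other 7 genes, which include the transaminase and the leucine and valine arms, had intervals that held a ratio of 1. A gene was called when it had at least 20 reads over both libraries, was at least 1.5-fold apart and had an interval that excluded 1. By this rule 1 of the 10, Dbt, was called higher and 1, Bckdk, lower. Among all 7529 genes with at least 20 reads, 8.06% were called higher and 7.44% lower, so both counts are near the background. At any fold, 1 interval lay above 1 and 2 below, against 11.3% of all genes on each side. Higher genes made up 52.0% of all calls, or 75.8% when scaled by total counts and 69.1% by total counts without mitochondrially encoded genes. These scalings moved the median log2 ratio of all genes from 0.00 to 0.18 and 0.13. The calls of Dbt and Bckdk were made under each of the 4 scalings.

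**Figure D1:**
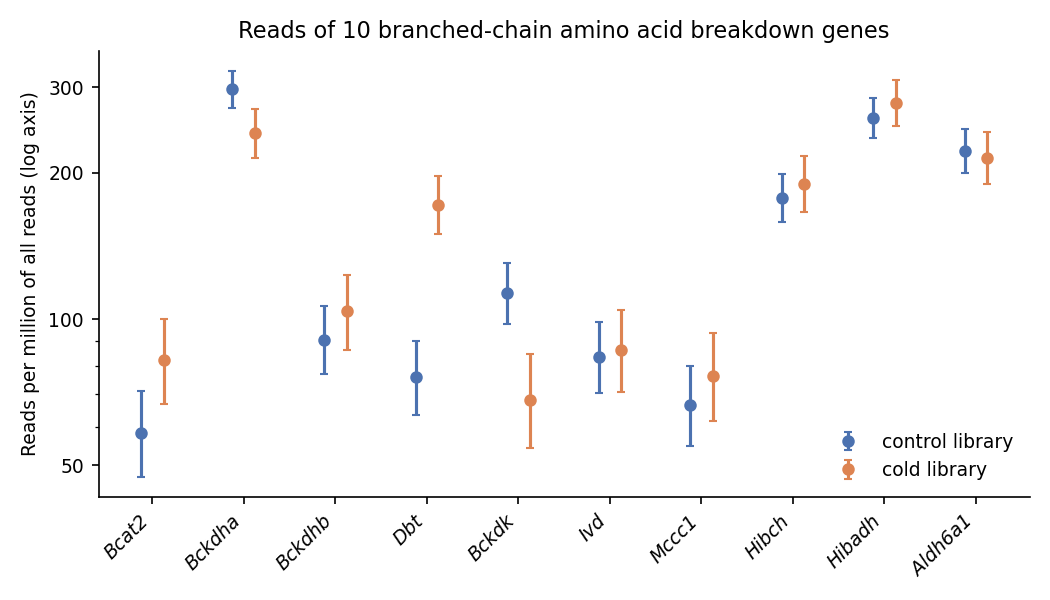
CPM (reads per 1000000 reads of the library, log axis) of each of the 10 genes in the control and the cold library; bars are 95% Clopper-Pearson intervals of counting error. The intervals of the 2 libraries do not overlap for Bckdha, Dbt and Bckdk, where Dbt is the gene that is higher in the cold library.

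Dbt lies on chromosome 3 (GRCm38, 116513070 to 116549981, plus strand). Its protein forms the core to which the other subunits bind and carries the lipoyl arm that passes the acyl group to coenzyme A. Dbt had 129 reads in the control library and 209 in the cold library, although the cold library was the smaller. In CPM, reads per 1000000 reads of the library, it stood at 76.0 CPM (63.4 to 90.3) and 171.9 CPM (149.4 to 196.9). All but 1 of these reads were on the coding form Dbt-201. Of the 7529 genes, 4.89% had a higher ratio than Dbt. Skeletal muscle RNA, higher in the cold library, was not separated from this value.

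Bckdha (chromosome 7, 25629946 to 25658981, minus strand) encodes E1 alpha, which with E1 beta removes carbon dioxide from the keto acid. It had 504 and 293 reads, or 296.8 CPM (271.5 to 323.9) and 241.0 CPM (214.2 to 270.3). The interval lay below a ratio of 1 under each of the 4 scalings, with the ratio between 0.704 and 0.812, but the fold stayed under 1.5. Bckdhb (chromosome 9, 83925145 to 84124240, plus strand), the E1 beta partner, had 154 and 126 reads and a ratio of 1.01 (0.791 to 1.29). A difference of E1 beta was therefore not detectable at this depth. Summed over Bckdha, Bckdhb and Dbt, the complex had 787 and 628 reads and a ratio of 0.984 (0.885 to 1.09), so its total hides subunits on both sides.

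Bckdk (chromosome 7, 127904082 to 127910221, plus strand) had 192 and 83 reads. It stood at 113.1 CPM (97.6 to 130.2) in the control library and 68.3 CPM (54.4 to 84.6) in the cold library. Of all genes tested, 6.96% had a lower ratio. Its opponent Ppm1k, the phosphatase that reactivates the complex, was scarce, with 11 and 15 reads and a ratio of 1.68 (0.722 to 4.05), so its difference was not detectable. Per 100 reads of Bckdk there were 5.73 of Ppm1k (2.81 to 10.5) and 18.1 (9.68 to 31.6), a 3.15-fold difference (1.29 to 7.91) that rests on these few reads.

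Ratios between these genes inside a library do not depend on scaling. For every 100 reads of Bckdha there were 25.6 reads of Dbt in the control library (20.9 to 31.1) but 71.3 in the cold one (59.4 to 85.5), a 2.79-fold difference (2.13 to 3.66). Bckdhb per 100 reads of Bckdha moved less, from 30.6 (25.3 to 36.7) to 43.0 (34.6 to 53.2), or 1.41-fold (1.06 to 1.87). The kinase stood at 149 reads per 100 of Dbt (118 to 188) in the control and at 39.7 (30.4 to 51.4) in the cold library, 3.75-fold lower (2.64 to 5.34). Kinase reads thus outnumbered E2 reads in the control and were outnumbered by them in the cold library. Per 100 reads of its substrate Bckdha the kinase stood at 38.1 (32.1 to 45.1) and 28.3 (21.9 to 36.3), and the interval of this 1.34-fold difference (0.993 to 1.83) held 1. These pairs, and the other pairs of genes given above and below, were chosen after the values of the genes had been seen. Each pair restates the ratios of its genes and adds no separate evidence.

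Bcat2 (chromosome 7, 45570153 to 45589711, plus strand) is the mitochondrial transaminase that starts the pathway outside the brain. It had 99 and 100 reads, a ratio of 1.246 (0.934 to 1.66). With total counts the ratio was 1.41 (1.06 to 1.88) and without the mitochondrially encoded genes 1.37 (1.02 to 1.82), so the interval excluded 1 only under these scalings. Bcat1, the cytosolic form, had 0 control reads and 1 cold read.

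The 2 genes of the leucine arm did not differ detectably. Ivd, isovaleryl-CoA dehydrogenase (chromosome 2, 118861954 to 118882909, plus strand), had 142 and 105 reads and a ratio of 0.912 (0.702 to 1.18). Mccc1, the biotin-carrying subunit of methylcrotonyl-CoA carboxylase (chromosome 3, 35959312 to 36000678, minus strand), had 113 and 93 reads and a ratio of 1.01 (0.763 to 1.35). Mccc2, the other subunit of that enzyme, stood close to it with 74 and 57 reads and a ratio of 0.950 (0.660 to 1.36). Reads of Mccc1 per 100 of Mccc2 were 153 (113 to 208) in the control library and 163 (116 to 231) in the cold library.

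The intervals of all 3 genes of the valine arm held a ratio of 1. Hibch (chromosome 1, 52844929 to 52920986, plus strand), which frees 3-hydroxyisobutyrate from its CoA ester, had 302 and 231 reads and a ratio of 0.943 (0.791 to 1.12). Hibadh (chromosome 6, 52546228 to 52640389, minus strand), the dehydrogenase that oxidises it, had 441 and 339 reads and a ratio of 0.948 (0.820 to 1.09). Both enzymes act in sequence, and their reads stood in nearly the same proportion, with 68.5 control reads (59.0 to 79.5) and 68.1 cold reads (57.4 to 80.8) of Hibch per 100 of Hibadh. Aldh6a1 (chromosome 12, 84430717 to 84451004, minus strand), which turns methylmalonate semialdehyde into propionyl-CoA, had 377 and 261 reads and a ratio of 0.854 (0.726 to 1.002). With DESeq2 size factors its interval was 0.713 to 0.984, and with total counts 0.823 to 1.14. Bckdhb, Ivd, Mccc1, Hibch and Hibadh each lay on different sides of 1 under different settings, so no direction is given for them.

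**Figure D2:**
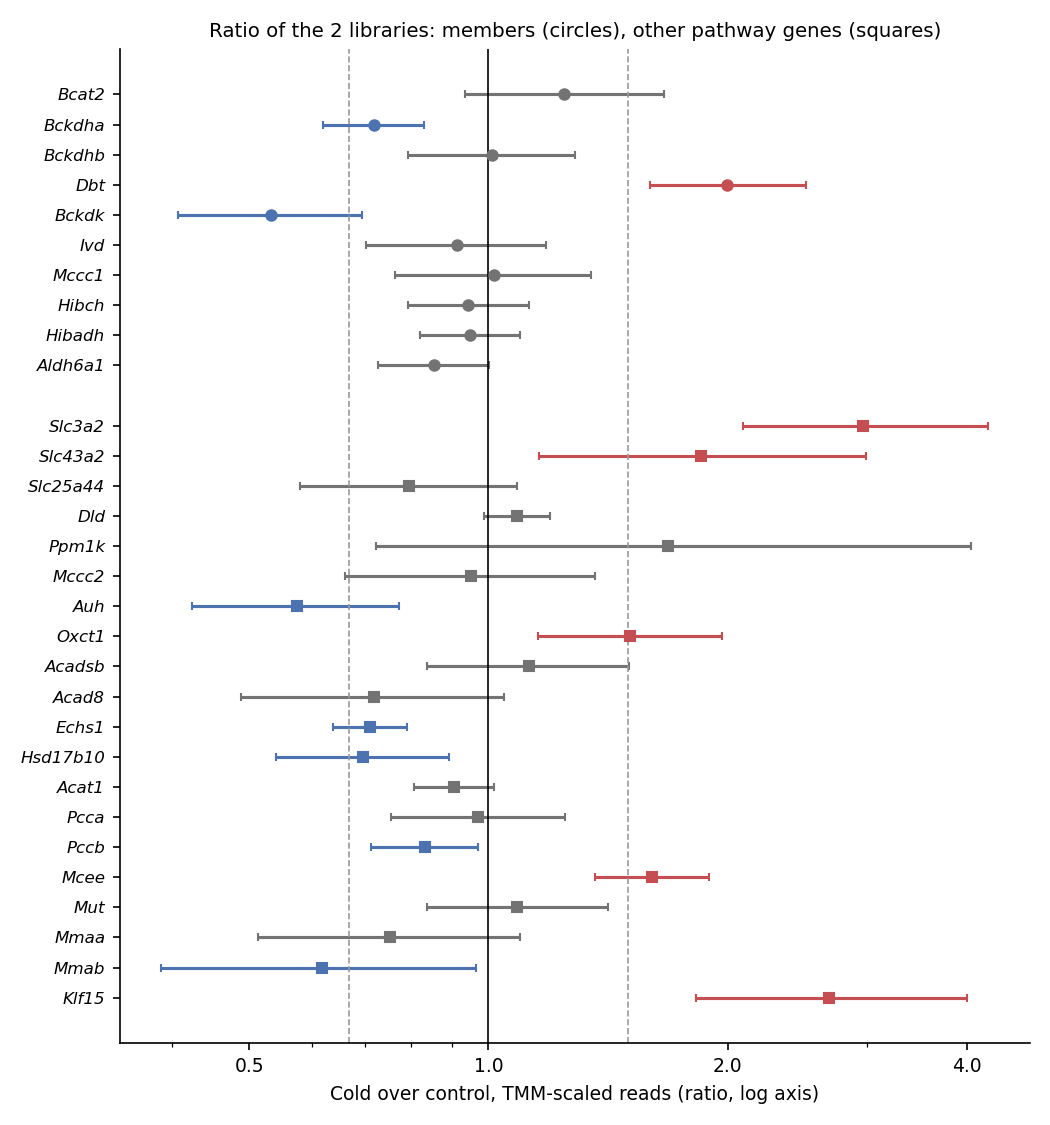
Ratio of TMM-scaled reads, cold over control (log axis), of the 10 members (circles) and of 20 of the 21 other pathway genes with at least 20 reads (squares); bars are 95% counting intervals, red and blue mark intervals above and below 1, and dashed lines mark 1.5-fold. Dbt is the member to the right and Bckdk the one to the left of the dashed lines.

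Summed over the 10 genes there were 2453 control reads and 1840 cold reads. This is 1445 CPM (1388 to 1503) and 1514 CPM (1445 to 1584), where CPM is by total counts. With TMM the ratio of the sums was 0.925 (0.870 to 0.983), so the side of 1 on which the sum lay depended on the scaling. The median log2 ratio of the 10 was -0.08, beside 0.00 for all genes tested, and it was 0.10 with total counts. The make-up of the sum, which no scaling changes, differed. Dbt took 5.26% of the members' reads (4.41 to 6.22) in the control library and 11.4% (9.94 to 12.9) in the cold library. This is a difference of 6.10 percentage points (4.43 to 7.83). Bckdha took 20.5% (19.0 to 22.2) and 15.9% (14.3 to 17.7), and Bckdk 7.83% (6.79 to 8.96) and 4.51% (3.61 to 5.56). Bcat2 took 4.04% (3.29 to 4.89) and 5.43% (4.44 to 6.57), a difference of 1.40 points (0.125 to 2.73). From the most abundant transcript of each gene alone it was 1.18 points (-0.065 to 2.50), an interval that held 0. For the other 6 the interval of the difference held 0.

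**Figure D3:**
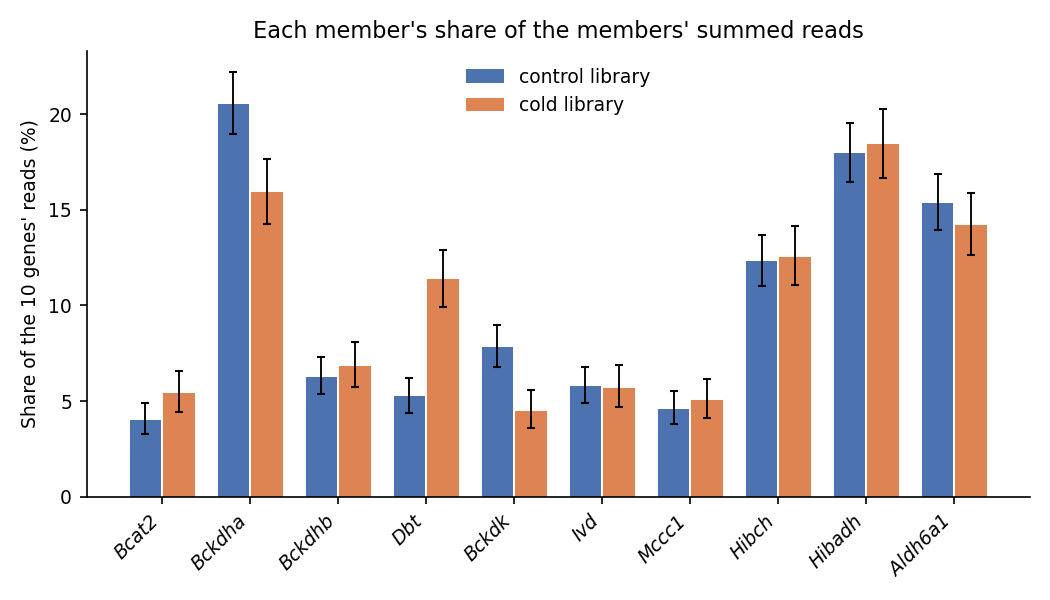
Share of the members' summed reads (%) taken by each of the 10 genes in the control and the cold library; bars start at 0 and error bars are 95% Clopper-Pearson intervals. The largest gain is that of Dbt, from 5.26% to 11.4%, and Bckdha and Bckdk take smaller shares in the cold library.

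Levels of different genes were compared as CPM per kilobase of transcript. On this scale Bckdha had the highest level in the control, 158.1 (144.6 to 172.5), followed by Hibadh at 142.3 (129.3 to 156.2), Hibch at 97.7 (87.0 to 109.3), Aldh6a1 at 64.9 (58.5 to 71.8) and Bckdhb at 64.6 (54.8 to 75.7). Bckdk at 37.7 (32.5 to 43.4), Bcat2 at 33.0, Mccc1 at 24.4, Dbt at 23.1 and Ivd at 22.8 came below. Bckdha and Hibadh, Aldh6a1 and Bckdhb, and each neighbouring pair from Bckdk downwards had overlapping intervals, so their order is not resolved. In the cold library Hibadh at 152.8 (137.0 to 170.0) and Bckdha at 128.4 (114.1 to 144.0) were highest, with overlapping intervals. Dbt had moved up to 52.2 (45.4 to 59.8), its interval overlapping that of Aldh6a1 at 62.8 (55.4 to 70.8), and Bckdk stood at 22.8 (18.1 to 28.2). The intervals of Mccc1 at 28.1 (22.7 to 34.4) and Ivd at 23.6 (19.3 to 28.5) overlapped that of Bckdk, so the order of the lowest 3 is not resolved. A direct RNA read starts at the poly(A) tail of 1 molecule, so dividing by length can understate long transcripts such as those of Dbt, Ivd and Aldh6a1, and the reads themselves are given above.

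Around these members, 25 other genes of transport and breakdown were listed, of which 21 had at least 20 reads. Of these, 5 were called higher (8.06% of all genes) and 2 lower (7.44%), and their median log2 ratio was -0.07. Entry into the cell showed the largest ratio. Slc3a2, the heavy chain that carries the large neutral amino acid transporters to the cell surface, had 47 and 113 reads and was 2.96-fold higher (2.09 to 4.26). Slc43a2, another transporter of these amino acids, had 32 and 48 reads and was 1.85-fold higher (1.16 to 2.99). Of the light chains that pair with Slc3a2, those listed were scarce, with 0 and 1 reads for Slc7a5 and 1 and 6 for Slc7a8. Other light chains were not examined. Slc25a44, the mitochondrial carrier for branched-chain amino acids, had 107 and 69 reads and a ratio of 0.795 (0.579 to 1.09). Klf15, a transcription factor known to promote amino acid breakdown, had 40 and 87 reads and was 2.68-fold higher (1.82 to 4.00).

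The steps after the dehydrogenase lay on both sides of 1. Auh, the hydratase that follows methylcrotonyl-CoA carboxylase, had 144 and 67 reads and was 1.74-fold lower (1.30 to 2.37). Oxct1, which reactivates acetoacetate for oxidation, was 1.51-fold higher (1.15 to 1.97) but not called with DESeq2 size factors, at 1.48-fold. Echs1 and Hsd17b10, a hydratase and a dehydrogenase that also serve isoleucine, were 1.41-fold (1.27 to 1.57) and 1.44-fold lower (1.12 to 1.85). The interval of Hsd17b10 held 1 with total counts. Acat1, the thiolase that ends the isoleucine arm, had 689 and 506 reads and a ratio of 0.906 (0.806 to 1.02).

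Propionyl-CoA, the product of valine and isoleucine, is carboxylated by Pcca and Pccb, turned by the epimerase Mcee and rearranged to succinyl-CoA by the cobalamin-dependent mutase Mut. Mcee had 261 and 340 reads and was 1.61-fold higher (1.36 to 1.89). Pcca had a ratio of 0.971 (0.754 to 1.249), Pccb 0.831 (0.712 to 0.969) and Mut 1.09 (0.836 to 1.41). The interval of Pccb held 1 by either total-count scaling. Mmab, which makes the cofactor of the mutase, was 1.62-fold lower (1.04 to 2.58) on 62 and 31 reads, and was not called by either total-count scaling. Oxct1, Mcee, Slc7a5 and Slc7a8 were named after their values were seen, the former pair because it was among the 5 called higher.

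The pyruvate dehydrogenase complex is built on the same plan and shares the E3 subunit Dld, so its genes were set beside those of the branched-chain complex. Dld had 908 and 800 reads and a ratio of 1.09 (0.987 to 1.20), and per 100 of its reads there were 14.2 of Dbt (11.7 to 17.1) against 26.1 in the cold library (22.3 to 30.5). Bckdha and Pdha1, the E1 alpha subunits, were both lower, Pdha1 by 1.61-fold (1.48 to 1.74), or 1.42-fold and 1.47-fold by total counts with and without mitochondrially encoded genes, where it was not called. Pdhb, the E1 beta gene for pyruvate, had 2166 and 894 reads and was 1.96-fold lower (1.82 to 2.13). Pdhx, another gene of the pyruvate complex, had 259 and 204 reads and a ratio of 0.971 (0.804 to 1.17), so not all of its genes were lower. The E2 subunits lay on opposite sides, and the reads of Dbt per 100 of Dlat restate that difference. Dlat, with 1149 and 654 reads, was 1.42-fold lower (1.29 to 1.57), and Dbt per 100 reads of Dlat was 11.2 in the control library (9.29 to 13.5) but 32.0 in the cold one (27.2 to 37.4), a 2.85-fold difference (2.23 to 3.65). Among the kinases of the pyruvate complex, Pdk1 was 3.31-fold lower (2.08 to 5.48), Pdk2 had a ratio of 1.07 (0.929 to 1.23) and Pdk4 was 1.18-fold higher (1.07 to 1.30). In the 2-oxoglutarate complex, Ogdh and Dlst had ratios of 1.03 (0.959 to 1.11) and 1.03 (0.940 to 1.14). By either total-count scaling the intervals of Dld, Ogdh, Dlst and Pdk2 lay above 1. No difference between the complexes could be tested with 1 library each.

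**Figure D4:**
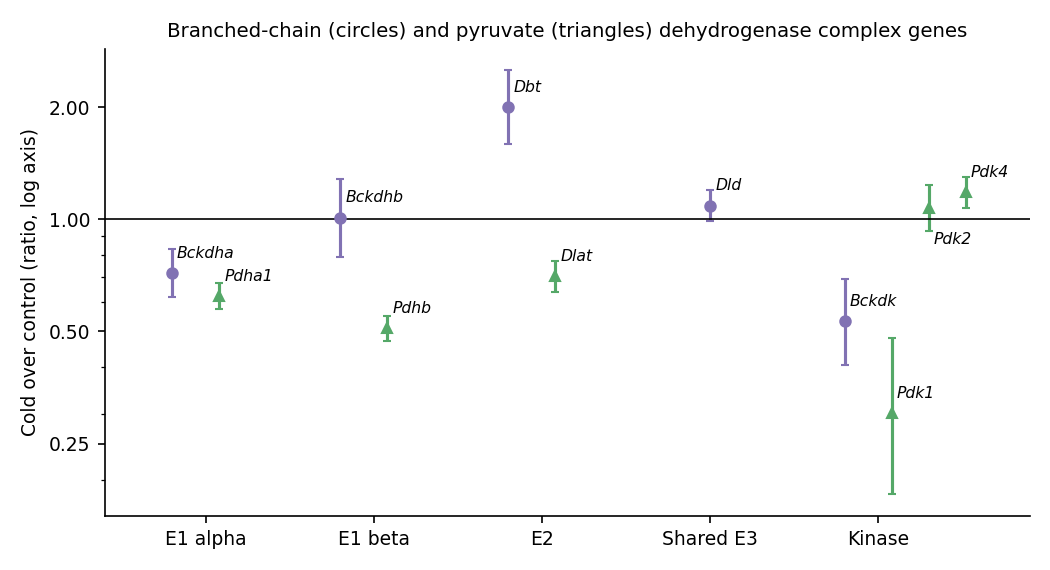
Ratio of TMM-scaled reads, cold over control (log axis), by subunit role, for genes of the branched-chain complex and the shared E3 Dld (circles) and of the pyruvate complex (triangles); bars are 95% counting intervals. Dbt lies at 2.0 and its counterpart Dlat below 1, while the E1 alpha genes Bckdha and Pdha1 are both below 1.

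The reads were also resolved into transcripts. The members had reads on 32 annotated transcripts, 19 of them protein-coding, and protein-coding forms took 90.7% of the members' reads (89.5 to 91.9) for the control library and 91.3% (89.9 to 92.6) for the cold one. Hibadh and Ivd had reads on 1 transcript each. For the other 8, the interval of the difference in share of the most abundant transcript held 0 in 8 of 8. Among 3647 genes with 2 or more forms (20 reads or more per library) it excluded 0 in 7.1%, so the members' count is near the background. No form of a member had a detectable shift in share. Bckdha-201 held 97.8% (96.1 to 98.9) and 98.6% (96.5 to 99.6) of the reads of its gene.

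Mccc1 was the member whose leading form is annotated as a target of nonsense-mediated decay, the pathway that removes messages with an early stop. Mccc1-205 had 67 control reads and 47 cold reads, or 59.3% (49.6 to 68.4) and 50.5% (40.0 to 61.1) of the gene. The coding form Mccc1-201 had 43 and 46 reads, or 38.1% (29.1 to 47.7) and 49.5% (38.9 to 60.0). The difference of 11.4 points for Mccc1-201 had an interval from -2.14 to 24.5, so it is not resolved at this depth. Mccc1-205 keeps 11 more bases at 1 splice site (chromosome 3, 35989833 to 35989843, exonic in this form and intronic in Mccc1-201). They are shown because they shift the reading frame. The coding junction is printed from the annotated transcripts, 5′ to 3′, with the 11 bases in capitals.
Mccc1-205: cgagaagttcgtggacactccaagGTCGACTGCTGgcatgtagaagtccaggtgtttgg
Mccc1-201: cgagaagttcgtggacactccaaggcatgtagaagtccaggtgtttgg
The shifted frame of Mccc1-205 ends after 765 coding bases, against 2151 in Mccc1-201, and its last 27 coding bases run into the stop codon shown in capitals.
Mccc1-205 stop: gacactccaaggtcgactgctggcatgTAG
Mccc1-205 also differs by 16 bases at another splice site and by a 3' end that is 521 bases longer. The share on Mccc1-205 therefore counts reads by whichever of these features the assignment used, and which one it used is not given in the sources used here.

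Bckdk had reads on a long and a short form. Bckdk-201 took 144 and 63 reads, 75.0% (68.3 to 81.0) and 75.9% (65.3 to 84.6), and Bckdk-202 took 44 and 15 reads, 22.9% (17.2 to 29.5) and 18.1% (10.5 to 28.0). Both forms were fewer in the cold library. Bckdk-202 keeps the last intron (87 bases, chromosome 7, 127908080 to 127908166) and ends 1613 bases earlier. It also lacks the first exon of Bckdk-201. The 2 forms code for different ends of the kinase, with 1236 and 1095 coding bases. The ends are printed to show where the reading frames part. In the first line the last 15 bases of the shared exon are followed, in capitals, by the first 15 of the last exon of Bckdk-201; in the other lines the stop codon is in capitals.
Bckdk-201 junction: aggacctatgcatggCTTTGGCTTCGGGTT
Bckdk-202 end: ggtggccagtcaggacctatgcatgggTAA
Bckdk-201 end: gatggtcgggaggaaagcttcagaatcTAA
The line for Bckdk-202 runs past the shared exon into the intron and meets a stop codon at once (127908081 to 127908083).

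Bckdhb, Bcat2 and Aldh6a1 had forms that differ at the first exon. Bckdhb-206, with 63 and 51 reads, and Bckdhb-201, with 52 and 45, differ by 5 bases at the 5' end, and Bckdhb-205, with 29 and 23 reads, starts at another first exon. Bcat2-201 held 65.7% (55.4 to 74.9) and 67.0% (56.9 to 76.1) of the reads of its gene. Aldh6a1-201, the coding form, had 236 and 159 reads, and Aldh6a1-204, listed without a coding sequence, had 138 and 99. These were 62.6% (57.5 to 67.5) and 60.9% (54.7 to 66.9) for the first, and 36.6% (31.7 to 41.7) and 37.9% (32.0 to 44.1) for the second. Aldh6a1-204 differs from Aldh6a1-201 in having a first exon of 187 bases (chromosome 12, 84448131 to 84448317) in place of one of 115 bases (84450889 to 84451003). Reads start at the 3' end and need not reach the first exon, so shares between forms that differ there depend on how incomplete reads were assigned, which was not tested.

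**Figure D5:**
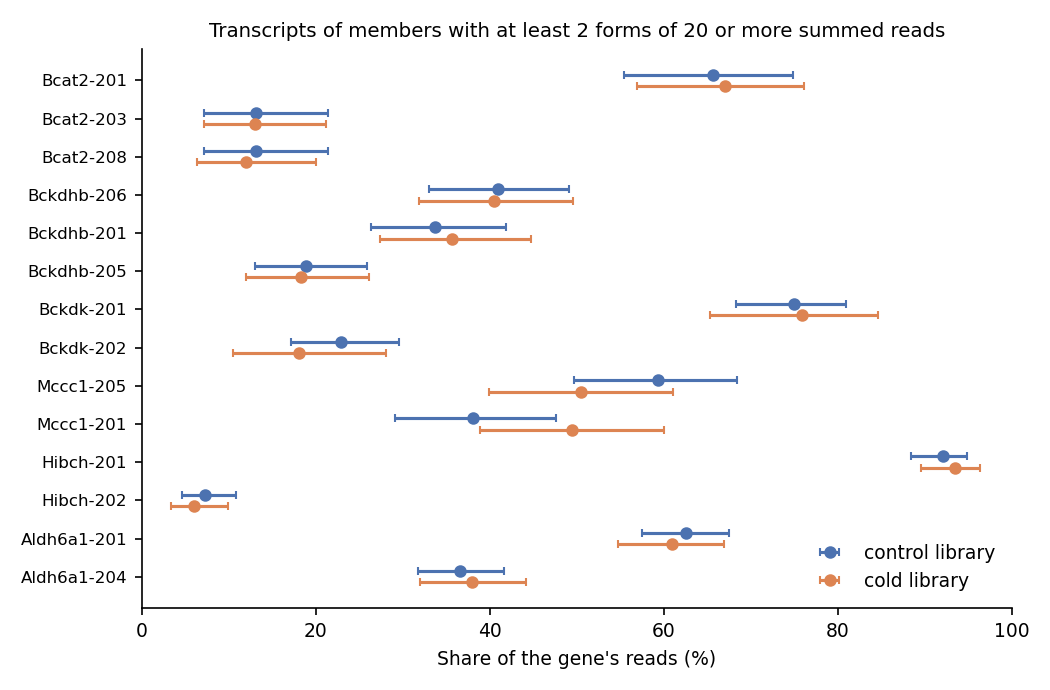
Share of a gene's reads (%) on each transcript, for members with at least 2 forms of 20 or more summed reads, in the control and the cold library; bars are 95% Clopper-Pearson intervals. The intervals of the 2 libraries overlap for each transcript shown, and Mccc1-205 and Mccc1-201 lie farthest apart.

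Promoters of 9 of the 10 members were found in RefSeq (GRCm38.p6), as windows from 250 bases before to 50 after an annotated start. Dbt had no entry. Windows were searched on both strands for the CCAAT box (CCAAT), the GC box (GGGCGG) and the half-site of estrogen-related receptors (AAGGTCA), which are held by 37.4%, 35.7% and 4.72% of all 32851 windows of this length. A CCAAT box on the reverse strand can share bases with a GC box. The windows of Bckdk and Bckdha are shown as those of the members lower in the cold library, and the pair of Aldh6a1 as starts at or near those of its 2 forms. Matches of the CCAAT box, the GC box and the receptor half-site are in capitals.
Bckdk, chr7:127903823-127904122, plus strand: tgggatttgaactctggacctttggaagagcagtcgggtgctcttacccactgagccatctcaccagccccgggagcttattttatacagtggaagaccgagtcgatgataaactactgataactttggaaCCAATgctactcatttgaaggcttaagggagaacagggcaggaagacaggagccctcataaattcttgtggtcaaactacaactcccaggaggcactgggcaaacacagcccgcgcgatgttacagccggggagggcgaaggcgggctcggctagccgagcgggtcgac
Bckdha, chr7:25658712-25659011, minus strand: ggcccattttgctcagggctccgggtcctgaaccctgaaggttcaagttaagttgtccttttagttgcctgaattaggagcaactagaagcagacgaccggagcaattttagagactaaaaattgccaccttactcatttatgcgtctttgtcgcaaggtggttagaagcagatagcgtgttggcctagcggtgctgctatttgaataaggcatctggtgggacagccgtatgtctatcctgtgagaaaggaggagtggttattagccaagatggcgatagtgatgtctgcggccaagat
Aldh6a1 upstream start, chr12:84450975-84451274, minus strand: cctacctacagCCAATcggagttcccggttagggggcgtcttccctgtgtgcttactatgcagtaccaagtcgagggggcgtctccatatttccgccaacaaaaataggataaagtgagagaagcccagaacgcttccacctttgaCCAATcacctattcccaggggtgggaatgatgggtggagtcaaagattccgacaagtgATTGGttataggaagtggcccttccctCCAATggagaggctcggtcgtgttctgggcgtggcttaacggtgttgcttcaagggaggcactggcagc
Aldh6a1 downstream start, chr12:84448268-84448567, minus strand: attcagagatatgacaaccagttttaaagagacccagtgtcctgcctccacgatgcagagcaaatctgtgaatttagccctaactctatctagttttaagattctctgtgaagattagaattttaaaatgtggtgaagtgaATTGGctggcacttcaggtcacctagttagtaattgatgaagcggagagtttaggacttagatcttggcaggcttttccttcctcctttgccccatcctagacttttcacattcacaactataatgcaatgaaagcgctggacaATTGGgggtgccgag
The window of Bckdk held 1 CCAAT box, 119 bases before the start, and that of Bckdha held none of the 3 motifs. The start used for the Bckdha window, 25658761, lies inside the span of Bckdha-201, which starts at 25658981 on the minus strand. Most of that window therefore lies within the transcript, and the bases before the start of Bckdha-201 were mostly not searched. The Bckdk window also held 1 TATA match on the reverse strand, 169 bases before the start, a motif held by 13.6% of all windows. It was the only match of the unmarked motifs among the members. The upstream window of Aldh6a1 held 4 CCAAT boxes, the downstream window 2. Among the other members, the window of Ivd held 4 CCAAT boxes and that of Hibch 6 GC boxes. No window of a member held the receptor half-site. These matches describe the letters and say nothing of binding.

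How reads shared with neighbouring or similar genes were assigned was not tested. Exons of Bckdha overlap those of B3gnt8 on the opposite strand, which had 21 and 11 reads, and those of Aldh6a1 overlap Bbof1, also opposite, with 7 and 9. The highest share of 31-base words in common with another gene was 7.24%, between Hibadh and Gm11225, which had 0 reads in both libraries. Only the few genes with the most shared words were kept for each member. The most read of those kept was Npepps, with 47 and 41 reads and 1.39% of words shared with Bckdk.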

How the data were processed

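The authors deposited whole-number read counts per Ensembl transcript for each of the 2 libraries, not normalized, with transcripts at 0 not listed (per the file headers and the values). Per the labels' protocols, 500 ng of poly(A)+ RNA went into the SQK-RNA002 kit. The submitters' processing notes name minimap2 and GRCm38. Versions, annotation release and the counting of reads that match several transcripts are not given in the sources consulted. Groups came from the treatment field of the labels.

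Transcripts were matched without version to GENCODE mouse M21 on GRCm38, and 0.0571% and 0.0652% of reads had no gene and stayed in the library size. Counts were summed to genes and scaled with edgeR 4.0.16 (TMM factors 0.940 and 1.06). A prior of 0.5 reads entered the log2 ratios. Intervals of ratios and shares were exact Clopper-Pearson, those of share differences Newcombe, those of ratios between pairs exact conditional. Alternatives were DESeq2 1.42.0 size factors, total counts, other read minimums, folds and priors, and single or coding transcripts. The ratio and call rule was run on simulated counts with counting error alone and effects larger than 1.5-fold. That run could not show how the rule behaves near 1.5-fold or with spread between animals. The members and lists were chosen with earlier results of these data known. All 10 members are named. 1 other pathway gene is not reported here by name or plotted. Of the rest a fixed set was named, plus up to 3 of top ratio, 3 of bottom ratio and 3 of top level among those with at least 50 reads. 8 genes of related complexes were named whatever their values, and Pdhx was added with its value known.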

Additional observations from a re-analysis of the deposited data

How the results depend on the processing

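With 1 library per group no library could be left out. No paired analysis was possible because each group has 1 library. Depth limits the text to differences larger than counting error, and scaling decides the side of 1 for ratios near it. The members' median log2 ratio moved from -0.08 to 0.10 when scaled by total counts and to 0.052 when mitochondrially encoded genes were left out of them. The median of the other pathway genes moved from -0.07 to 0.11 and 0.061, and to -0.15 from protein-coding transcripts alone. Their count of lower calls was 1 in place of 2 under both total-count scalings and with at least 100 reads. Over all genes 4.25% were called lower by total counts, 5.11% without mitochondrially encoded genes and 9.08% with at least 100 reads. The other pathway genes had 4 higher calls, not 5, with DESeq2 size factors, at least 100 reads and the most abundant transcript alone. Over all genes these settings called 7.49%, 10.2% and 8.31% higher. At 2-fold, 0 members were called higher and 0 lower, and 2 and 0 other pathway genes, against 4.20% and 4.08% of all genes. At the lower fold threshold that was tried, 2 members and 4 other pathway genes were called lower, against 9.78% of all genes. There 1 member and 5 other pathway genes were called higher, against 10.5%. The members' summed reads were 2114 and 2144 CPM of the reads free of mitochondrially encoded genes in the control and the cold library, and 1311 and 1382 CPM from protein-coding transcripts. Over 7 settings the log2 ratio ranged from 0.97 to 1.18 for Dbt, from -0.93 to -0.72 for Bckdk and from -0.51 to -0.30 for Bckdha. Each interval of the ratio excluded 1, but the settings are not all separate checks. The prior enters the log2 ratio alone and leaves the interval unchanged. For Bckdha coding transcripts repeat the main values, and for Dbt the single and the coding transcript settings are the same. The other 63 values for the lists and shares kept within the limits set for them.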
